A study of Mus musculus with 5 samples.

Results

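Tight junctions are belts of protein strands that seal the gap between neighbouring epithelial cells, close to the side that faces the lumen. Claudins and occludin span the membrane and build the strands, the junctional adhesion molecule F11r (JAM-A) stands beside them, and the cytoplasmic proteins Tjp1 (ZO-1) and cingulin (Cgn) tie the strands to the actin cytoskeleton. In the stomach the claudin Cldn18 limits the leak of acid between surface cells, and this barrier is a known site of aspirin injury. The 10 genes described here were taken by name: the claudins Cldn18, Cldn7, Cldn4, Cldn3, Cldn2 and Cldn23, and Ocln, Tjp1, F11r and Cgn. All 10 were measured, out of 19938 genes with a probe set naming that gene alone.

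Total RNA from the gut of male ddY mice (an outbred stock) aged 5 weeks was hybridised to 5 Affymetrix Mouse Gene 1.0 ST arrays, 1 for each of 5 groups. The animals were dosed by mouth on successive occasions a short time apart, and tissue was collected 4 hours after the last dose. The groups were GA+GA (gum arabic at both doses, the vehicle control), LG21+GA (Lactobacillus gasseri OLL2716, then gum arabic), GA+Asp (gum arabic, then aspirin), Tep+Asp (teprenone, a mucosal protective drug, then aspirin) and LG21+Asp (the bacterium, then aspirin). The number of mice behind an array is not given in the sources used here. With 1 array per group there is no replicate error, so no p-value is given, and a difference below cannot be set against the spread between animals. In tissue RNA, fewer cells of a type and less RNA per cell cannot be told apart.

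Values are log2 expression after the authors' RMA normalization, so a difference of 1 is a factor of 2. A difference was counted when it reached 0.2 on this scale, which is 1.15-fold, and the share of all genes reaching it is given beside each count. Genes were called above the filter when their mean over the arrays exceeded 7.41, the median of all genes. Array medians over all probe sets lay between 6.94 and 6.98. The tissue is labelled gut, and the gastric markers Muc5ac (13.29 to 13.34), Tff1 (13.32 to 13.34) and Gkn1 (13.28 on each array) stood near the top of the scale, whose highest value was 13.87. Of the 10 intestinal markers 5 were above the filter. These were Vil1 (8.12 to 8.20), Cdx1 (7.60 to 7.70), Lct (7.45 to 7.57), Lgals4 (11.07 to 11.26) and Apoa4 (10.66 to 10.69). Below it stood Cdx2 (6.40 to 6.43), Fabp2, Muc2, Sis and Cdh17. Xist, which male tissue does not express, stood at 4.88 to 4.91 and serves as a low-level reference.

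A known input to these genes is the E-box CACCTG, bound by the repressors Snai1, Snai2, Zeb1 and Zeb2, which lower claudin and occludin expression in other settings. RefSeq start windows of assembly GRCm38.p6, running from 250 bases before to 50 bases after a start, were at hand for 9 of the 10 genes, in 12 windows. The motif, searched as CACCTG and as CAGGTG so that both strands were covered, was in 6 of these windows and in 5 of the 9 genes. It was in 20.2% of all 32817 windows and in the windows of 22.6% of all 26994 genes. Of 41 other tight junction genes with a window 17 held it, so the motif was not particular to the 10 genes. Each of the 8 sites is shown 5′ to 3′ on the gene's own strand, with the motif in capitals, because these are the letters through which the named repressors could act on Cldn7, Cldn4, Cldn3, Ocln and F11r. A match is a description of the letters and not evidence of binding.
Cldn7, chr11:69965312-69965341, plus strand: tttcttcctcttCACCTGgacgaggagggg
Cldn7, chr11:69965352-69965381, plus strand: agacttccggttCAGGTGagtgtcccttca
Cldn4, chr5:134946931-134946960, minus strand: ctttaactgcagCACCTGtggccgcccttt
Cldn4, chr5:134946906-134946935, minus strand: cctttcttgttgCAGGTGcaggcaggaaag
Cldn3, chr5:134986233-134986262, plus strand: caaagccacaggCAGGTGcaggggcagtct
Ocln, chr13:100552694-100552723, minus strand: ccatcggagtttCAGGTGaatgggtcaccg
Ocln, chr13:100552549-100552578, minus strand: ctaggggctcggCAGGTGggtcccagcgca
F11r, chr1:171437427-171437456, plus strand: agttcggggttgCACCTGcgtacggtgagt
The windows of Cldn18, Cldn2, Tjp1 and Cgn did not hold these letters.

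Cldn18, the gastric claudin, stood at 12.92 on the GA+GA, LG21+GA, GA+Asp and Tep+Asp arrays, which were exactly equal, and at 12.91 on LG21+Asp. The range over the 5 arrays was 0.0048, and 92.0% of all genes had a range at least as wide. After quantile normalization the range of Cldn18 was 0.027 and after cyclic loess 0.017, so the exact equality belongs to the deposited values. Only 0.135% of genes had a higher mean than Cldn18. Among the 157 genes with a mean of 12 or more, 5.10% had a range of at least 0.2, against 25.5% of the 4266 genes with a mean under 6, so high probe sets varied less than low ones. RefSeq places 2 starts of Cldn18 7204 bases apart. The gene is known to make a lung and a stomach form from separate first exons. Its single probe set gives 1 value for the gene, and the forms were not analysed here.

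Among the other claudins that build sealing strands, Cldn3 varied most between arrays. Cldn3 stood at 7.72 in GA+GA, 7.65 in LG21+GA, 7.65 in GA+Asp, 7.62 in Tep+Asp and 7.72 in LG21+Asp, a range of 0.11. The control and LG21+Asp were the high arrays and the other three lay below them. Cldn4 stood at 6.83 in GA+GA and at 6.84 on each of the other arrays. Cldn7 stood at 6.69 in GA+GA, LG21+GA, Tep+Asp and LG21+Asp and at 6.66 in GA+Asp. Cldn23 stood at 6.38 on all 5 arrays, equal to the last deposited digit. Cldn4, Cldn7 and Cldn23 lay below the filter, so a lack of difference in them can be read less far than in Cldn3.

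Cldn2, the claudin that forms cation pores in leaky epithelia, stood at 5.39 in GA+GA, LG21+GA, Tep+Asp and LG21+Asp and at 5.29 in GA+Asp. GA+Asp was thus the low array by 0.10, and 47.2% of all genes had a range at least as wide. Its level lay near that of Xist, so this difference is one between values close to the low-level reference.

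Ocln, which encodes occludin, stood at 9.98 in GA+GA, 9.998 in LG21+GA, 10.02 in GA+Asp, 10.03 in Tep+Asp and 9.99 in LG21+Asp. Its range of 0.05 was exceeded or equalled by 71.5% of all genes. Tjp1, the scaffold protein ZO-1, stood at 10.11 in GA+GA, 10.09 in LG21+GA, 10.16 in GA+Asp, 10.13 in Tep+Asp and 10.13 in LG21+Asp. Each of the 3 aspirin arrays lay above both arrays without aspirin for Tjp1, by at most 0.07. Cgn, the cingulin gene, stood at 8.38 in GA+GA, 8.39 in LG21+GA, 8.39 in GA+Asp, 8.35 in Tep+Asp and 8.38 in LG21+Asp, with Tep+Asp the low array.

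F11r had the widest range of the 10 genes. It stood at 10.61 in GA+GA, 10.63 in LG21+GA, 10.67 in GA+Asp, 10.51 in Tep+Asp and 10.50 in LG21+Asp, a range of 0.17 or 1.12-fold. The arrays with a protective agent before aspirin were the low ones, and GA+Asp was the highest. GA+Asp was strictly highest in 4323 of all 19938 genes and in 3353 of the 9969 above the filter. A range at least as wide as that of F11r was found in 24.1% of all genes and in 18.9% of genes above the filter. F11r thus did not stand apart from genes at large, most of them lower in level. The 1628 genes with a mean from 10 to 12, where F11r lay, had a median range of 0.08. Of these 8.29% had a range of 0.2 or more, and the share reaching 0.17 was not counted at that level.

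**Figure D1:**
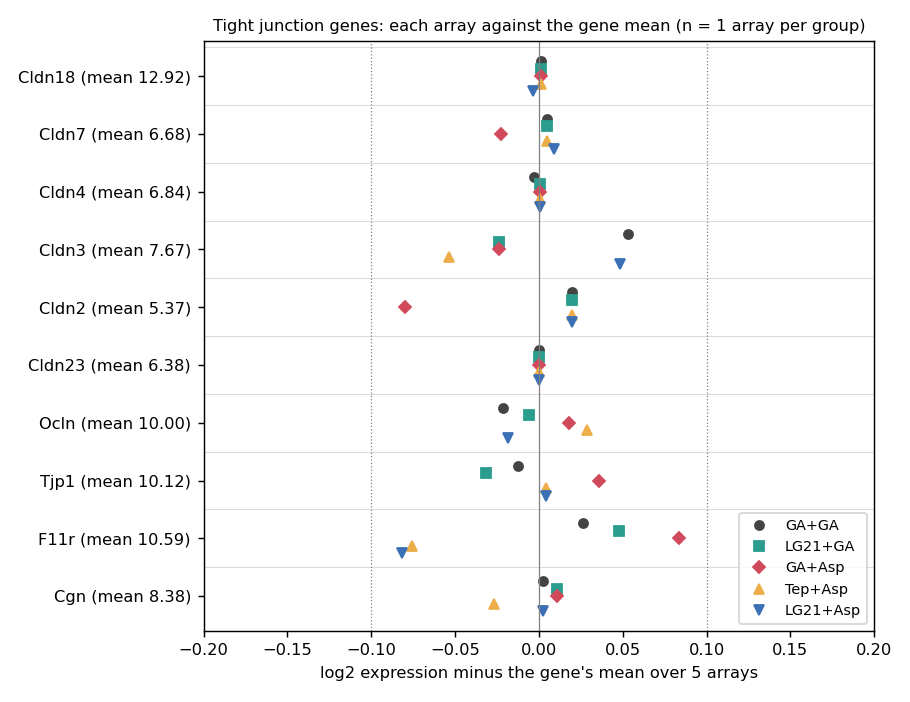
Log2 expression of each of the 10 genes on each array minus the gene's mean over 5 arrays (x axis, log2 units), with the mean level beside the gene name and 1 array per group. All points lie within 0.1 of the gene mean, Cldn23 has 5 equal values, and F11r has the widest spread, with GA+Asp highest and Tep+Asp and LG21+Asp lowest.

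The ranges of the 10 genes were also described together. None of the 10 had a range of 0.2 or more, where 16.7% of all genes did, and 2 (F11r and Cldn3) reached 0.1, where 47.1% of all genes did. Of the 6 genes above the filter, none reached 0.2, where 12.1% of genes above the filter did, and 2 reached 0.1, where 43.7% did. With so few genes, counts of 0 at 0.2 lie near these shares. The median range of the 10 was 0.04, against 0.09 for all genes. It was 0.04 for 9 gastric epithelium markers and 0.03 for 11 adherens junction genes, and 0 of either list reached 0.2. Small ranges were thus not particular to the 10 genes. Exact ties between arrays, which RMA values of this table often show, made up 35 of the 100 gene and array pair combinations (35.0%), against 28.0% for all genes.

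**Figure D2:**
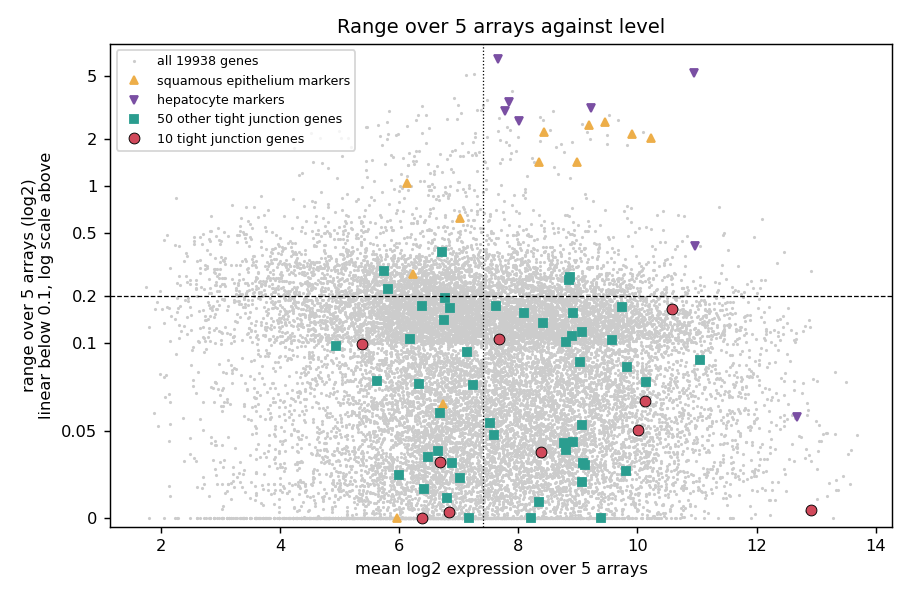
Range over 5 arrays (y axis, log2 units, linear below 0.1 and logarithmic above) against mean log2 expression (x axis) for all 19938 genes in grey, with the 10 tight junction genes, 50 other tight junction genes, and squamous epithelium and hepatocyte markers in colour. The dashed line is 0.2 and the dotted line the filter level; all 10 genes lie below the dashed line, while squamous and hepatocyte markers reach ranges of 2.55 and 6.39.

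Aspirin alone, GA+Asp against GA+GA, asks what the drug does to the tissue without a protective agent. The largest differences among the 10 genes were in the pore claudin Cldn2 (-0.10), the sealing claudin Cldn3 (-0.08) and F11r (0.06), and Tjp1 differed by 0.05. Differences of at least 0.2 were found in 0 of 10 genes, where 5.33% of all genes and 3.68% of genes above the filter had one. The median of the 10 was 0.00, as it was for all genes, with 5 above 0, 3 below and 2 exactly equal. Of all 19938 genes 8447 were above 0, 6264 below and 5227 equal. Of the 9969 genes above the filter 5813 were above 0 and 2338 below, with a median of 0.013. At a size of 0.1 the count among the 10 was 0, where 19.1% of all genes had such a difference.

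LG21 alone, LG21+GA against GA+GA, asks what the bacterium does without aspirin. Cldn3 differed by -0.08, and F11r by 0.02. The other genes lay between these values. On both arrays 4 of the 10 were exactly equal, as were 6256 of all 19938 genes. Differences of at least 0.2 were found in 0 of 10 genes, where 3.53% of all genes and 2.42% of genes above the filter had one, and at 0.1 the count was 0 as well, where 14.1% of all genes had one. The median was 0.00 for the 10 and for all genes.

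The series' title points to LG21 given ahead of aspirin, read here as LG21+Asp minus GA+Asp. F11r stood at 10.50 against 10.67, a difference of -0.17, Cldn2 at 5.39 against 5.29, and Cldn3 at 7.72 against 7.65. The gastric claudin Cldn18 differed by 0.00 and Ocln by -0.04. Differences of at least 0.2 were found in 0 of 10 genes, where 6.58% of all genes and 3.66% of genes above the filter had one. At 0.1 the count was 1, F11r, where 22.8% of all genes had one. Of the 9969 genes above the filter 2367 were above 0 and 5803 below. This comparison and aspirin alone share the GA+Asp array with opposite signs, so the opposite values of Cldn2 and F11r in both are not independent.

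Teprenone is the reference drug, and its difference is Tep+Asp minus GA+Asp. F11r differed by -0.16, Cldn2 by 0.10, and Cgn by -0.04. Differences of at least 0.2 were found in 0 of 10 genes, where 4.48% of all genes and 2.62% of genes above the filter had one. On both arrays 3 of the 10 were exactly equal, as were 5264 of all 19938 genes. F11r alone reached 0.1, as 17.1% of all genes did. GA+Asp is shared with the LG21 comparison, so the like values of F11r in both rest on the same aspirin array.

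LG21 and teprenone, both with aspirin, were set side by side in LG21+Asp against Tep+Asp. Cldn3 stood at 7.72 against 7.62, a difference of 0.10, and Ocln differed by -0.05. F11r differed by -0.01. Differences of at least 0.2 were found in 0 of 10 genes, where 4.77% of all genes and 2.66% of genes above the filter had one. Cldn3 alone reached 0.1, as 17.3% of all genes did.

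The aspirin difference after LG21 is LG21+Asp minus LG21+GA, and its arrays are separate from those of aspirin alone. F11r differed by -0.13, against 0.06 with aspirin alone, and Cldn3 by 0.07, against -0.08. Differences of at least 0.2 were found in 0 of 10 genes, where 4.36% of all genes and 3.08% of genes above the filter had one. F11r alone reached 0.1, as 16.7% of all genes did. The LG21 by aspirin interaction, the second aspirin difference minus the first, was -0.19 for F11r and 0.15 for Cldn3, and 0 of 10 genes reached 0.2, where 10.4% of all genes and 7.01% of genes above the filter did. These 2 genes reached 0.1, as 31.2% of all genes did. With 1 array in each group the interaction was not tested.

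**Figure D3:**
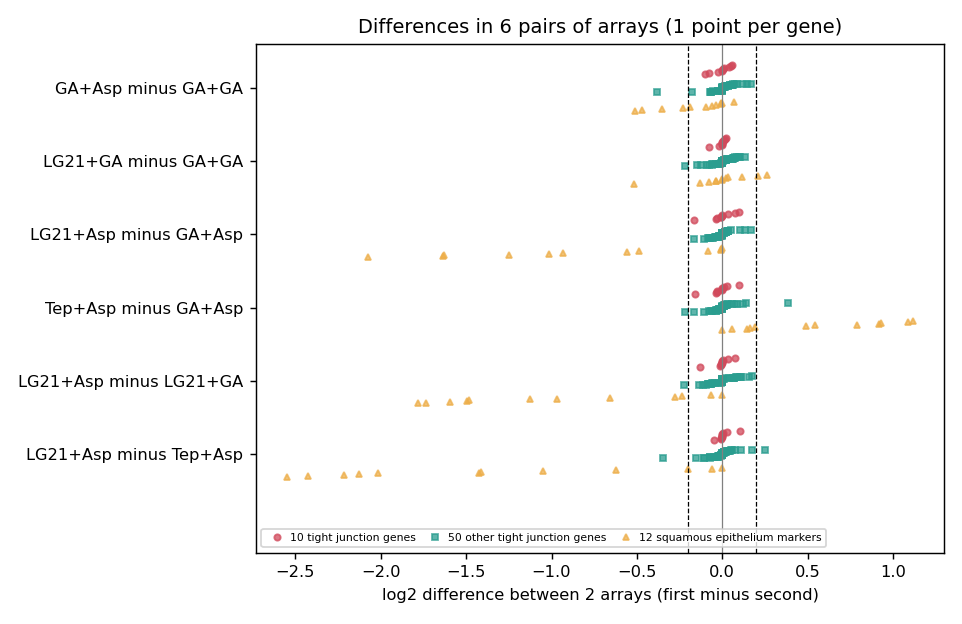
Log2 difference between the arrays of each of 6 pairs (x axis, first minus second), with 1 point per gene for the 10 tight junction genes, 50 other tight junction genes and 12 squamous epithelium markers. The dashed lines mark 0.2 either way; all 10 genes lie between them in each pair, while the squamous markers run from -2.55 to 1.12.

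The order of arrays by aspirin was also described, with the 3 aspirin arrays set against the other 2 across pretreatments. These arrays are not replicates, and an exact permutation test of 3 against 2 cannot go below 0.2 (two-sided). Tjp1 was the single gene of the 10 in which they did not overlap, and such an order was found in 8.89% of all genes. Among the 6 genes above the filter it was 1, where 12.5% of genes above the filter had one. The count was 4 without the LG21+GA array and 2 without GA+Asp or without LG21+Asp, where 36.1%, 15.8% and 15.9% of all genes had such an order. It stayed 1 without GA+GA, where 32.6% of all genes had such an order, and without Tep+Asp, where 13.2% did. After quantile normalization it was 4, where 28.5% of all genes had such an order, and after cyclic loess 2, where 18.9% did.

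The wider tight junction list held 50 measured genes, 28 of them above the filter, with a median range of 0.08. No gene above the filter differed by 0.2 in any of the 6 pairs, where 2.42% to 3.68% of genes above the filter did in a pair. With 28 genes a count of 0 lies near that share. The list's median difference was 0.00 in each pair, as was that of all genes. Cldn8, a claudin of tight renal and colonic epithelium, stood at 8.84 in GA+GA, 8.75 in LG21+GA, 9.01 in GA+Asp, 8.84 in Tep+Asp and 8.84 in LG21+Asp, with GA+Asp the high array. Jam2, an adhesion molecule known from endothelium, stood at 8.80 in GA+GA, 8.74 in LG21+GA, 8.87 in GA+Asp, 9.01 in Tep+Asp and 8.90 in LG21+Asp, with Tep+Asp the high array. These were the 2 genes of this list above the filter whose range reached 0.2, where 12.1% of genes above the filter did. They were named after their values were seen. Of the 9969 genes above the filter 3353 were strictly highest in GA+Asp and 1713 in Tep+Asp. Like Jam2, the endothelial markers had their highest mean level in Tep+Asp, 8.80 against 8.72 to 8.73 on the other arrays. Of these markers 5 of 6 were strictly highest there, as were 4 of 4 smooth muscle markers and 2849 of all 19938 genes. Cldn5, a further gene of this list known from endothelium, was lowest in Tep+Asp (7.56) and highest in LG21+Asp (7.73). It too was named after its values were seen. The part of these cell types in the level of Jam2 was not tested. The 3 aspirin arrays lay above the other 2 in Jam2 and Ybx3, and below them in Tjp3 and Marveld2, which is 4 of 50 genes, where 8.89% of all genes had such an order. All 4 were among the 28 above the filter, where 12.5% of genes above the filter had one.

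Below the filter, Cldn1, Cldn13 and Cldn16 reached 0.2 in at least 1 pair and were named after their values were seen. Cldn1, a claudin abundant in epidermis and other squamous epithelia, stood at 6.89 in GA+GA, 6.77 in LG21+GA, 6.51 in GA+Asp, 6.89 in Tep+Asp and 6.55 in LG21+Asp. GA+Asp and LG21+Asp were the low arrays, and the range of 0.38 was reached by 3.64% of all genes. Cldn1 differed by -0.38 with aspirin alone, by 0.38 with teprenone before aspirin and by 0.03 with LG21 before aspirin. All of these share the GA+Asp array, so the opposite values with aspirin alone and with teprenone are not independent. With aspirin in LG21-treated mice Cldn1 differed by -0.22, and for LG21 against teprenone by -0.35. Krt5, a keratin of basal squamous cells, stood at 8.58 in GA+GA, 8.54 in LG21+GA, 8.07 in GA+Asp, 8.999 in Tep+Asp and 7.58 in LG21+Asp. The same arrays were low and Tep+Asp was high, but the lowest array was GA+Asp for Cldn1 and LG21+Asp for Krt5. With LG21 before aspirin Krt5 differed by -0.49 and the squamous list had a median of -0.75, against 0.03 for Cldn1. Krt4, a keratin of upper squamous layers, was low in LG21+Asp (6.87) but not in GA+Asp (8.95). Of the 12 squamous markers 10 had a range of 0.1 or more, where 47.1% of all genes did. In LG21+Asp 11 of the 12 were strictly lowest, as were 3165 of all 19938 genes. The mean level of the squamous list ran from 7.24 there to 8.58 in Tep+Asp. The part of the squamous markers in the level of Cldn1 was not tested. Cldn13 had its high array in GA+GA (5.95 against 5.73 to 5.80) and Cldn16 its low one in Tep+Asp (5.55 against 5.77 to 5.84), both at levels where few differences can be read.

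**Figure D4:**
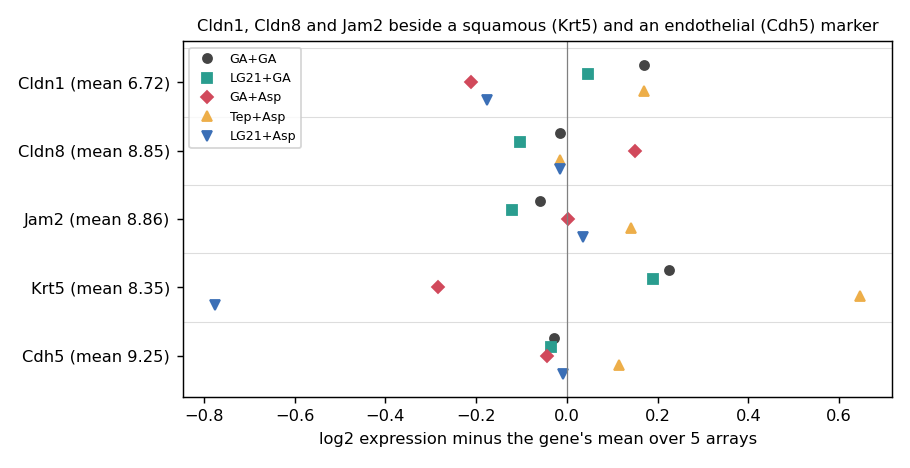
Log2 expression on each array minus the gene's mean over 5 arrays (x axis, log2 units) for Cldn1, Cldn8 and Jam2, beside Krt5, a squamous marker, and Cdh5, an endothelial marker. Cldn1 and Krt5 are both low in GA+Asp and LG21+Asp, with GA+Asp lowest for Cldn1 and LG21+Asp lowest for Krt5. Jam2 and Cdh5 are both highest in Tep+Asp. Cdh5 has the widest range of the 6 endothelial markers (0.16). Cldn5, also known from endothelium and not shown, is lowest in Tep+Asp (7.56).

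The adherens junction list, whose proteins join cells just below the tight junction, had 11 measured genes with a median range of 0.03. All 11 were above the filter and 0 had a range of 0.2, where 12.1% of genes above the filter did. Cdh1, the epithelial cadherin, stood at 11.94 to 11.96. The squamous and hepatocyte markers of the same arrays had median ranges of 1.42 and 3.06, and Alb, the albumin gene, ran from 7.43 in GA+Asp to 12.69 in GA+GA. The 10 tight junction genes had a mean level between 8.49 and 8.50 on each of these arrays.

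The E-box repressors, a list added after the design was fixed, had ranges from 0.0087 to 0.20. Snai1 stood at 7.93 in GA+GA, LG21+GA and LG21+Asp, 7.84 in GA+Asp and 7.99 in Tep+Asp, and Snai2 at 7.42 in GA+GA and 7.41 elsewhere. Zeb1 ran from 8.37 in LG21+GA to 8.57 in Tep+Asp and Zeb2 from 8.64 in LG21+GA to 8.83 in Tep+Asp. Tep+Asp was thus strictly highest for 3 of these 4 genes, where it was for 2849 of all 19938 genes and 1713 of the 9969 above the filter. It was also strictly highest for 4 of 4 smooth muscle and 5 of 6 endothelial markers, whose part in these levels was not tested. Of the 5 genes with the motif, Cldn3 was lowest in Tep+Asp, F11r was low there, Ocln was highest, Cldn4 was tied for highest, and Cldn7 equalled the control.

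By the rule for likeness, F11r was set beside the 5350 genes above the filter whose range was at least 50% of its own. The measure was the mean absolute difference between array values after each gene was centred on its mean, over 5 arrays. The nearest genes were Prcc (0.0091), Ndufb6 (0.011), Rab3d (0.012), Ebp (0.013) and Fam162a (0.014). Prcc, for example, stood at 8.93 in GA+GA, 8.97 in LG21+GA, 9.02 in GA+Asp, 8.83 in Tep+Asp and 8.83 in LG21+Asp, the order of F11r in all but the lowest pair. With so many candidates and 5 arrays, close patterns would be found for many genes, and the list is a description only.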

How the data were processed

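The deposited log2 values were made by the authors with RMA in Expression Console, per the labels; the design text of the series names the Exon Array Computational Tool instead. The log2 scale was inferred from their span of 1.32 to 13.87. The software version and the genome build are not given in the sources used here. Of 35557 probe sets, 21789 named 1 gene in the platform annotation, 1621 several and 12147 none. By gene identifier 21698 matched the RefSeq table of GRCm38.p6, and 0 symbols changed. Where a gene had several probe sets (999 genes) the highest mean decided; each of the 10 genes had 1. The authors' normalization was kept. Differences were counted at 0.2, with no test, since each group had 1 array. The small number of arrays limits precision. Alternatives were sizes of 0.1 and 0.5, quantile normalization and cyclic loess with 3 iterations (limma 3.58.1, R 4.3.3), other filters (none, or the 75th percentile), the mean of probe sets, list means, and leaving out each array. Counting was tested on simulated data. Genes of the wider tight junction list were to be named where above the filter and at least 0.2 apart in a pair, and none met this. Tjp3 and Ybx3 were named only for the order of their aspirin arrays. The others named from that list are marked. The members and lists were chosen with earlier results of these data known.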

Additional observations from a re-analysis of the deposited data

How the results depend on the processing

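No paired analysis was possible because each group had 1 array. Over the 10 genes, 6 pairs and the interaction, no difference moved by 0.1 or more under quantile normalization or cyclic loess. The largest move in a pair was 0.0408. Only 4 of the 60 differences in pairs reached 0.1 to begin with, so this tolerance is wide for these genes. The mean of probe sets could not move a difference, since each of the 10 genes had 1 probe set. The widest range, that of F11r, was 0.137 after quantile normalization and 0.14 after cyclic loess. The narrowest ranges grew, in the same order, to 0.027 and 0.017 for Cldn18, 0.027 and 0.028 for Cldn23, and 0.033 and 0.021 for Cldn4. Near-zero ranges thus depend on the normalization. Counts of the 10 genes at least 0.2 apart were 0 in each pair and stayed 0 under both normalizations. At 0.5 they could only be 0 as well. At a size of 0.1 they were 1 for LG21+Asp against GA+Asp, Tep+Asp against GA+Asp, LG21+Asp against LG21+GA and LG21+Asp against Tep+Asp. The wider list had 0 genes above the filter at 0.2, where between 2.42% and 3.68% of genes above the filter did in a pair. At 0.1 it had, of 28, 3 with aspirin alone, 1 with LG21 alone, 3 for LG21 before aspirin, 3 for teprenone, 4 for aspirin after LG21 and 4 for LG21 against teprenone, where between 11.8% and 17.2% of genes above the filter did in a pair. Without a filter it had, of 50 genes, 1, 1, 0, 2, 1 and 2 at 0.2 in the same order. Between 3.53% and 6.58% of all genes reached 0.2 in a pair. Of the 10 genes, 1 had aspirin arrays that did not overlap the others (8.89% of all genes), with 4 after quantile normalization (28.5%), 2 after cyclic loess (18.9%) and 1 to 4 when each array was left out (13.2% to 36.1%). List medians moved by less than 0.1 under each alternative. Exact ties and low levels (4 of the 10 genes below the filter) limit how far equal values can be read.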

Other observations

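Some of these genes are neighbours in the RefSeq gene table. Cldn3 and Cldn4 have no protein-coding gene between them. Cldn3 had a range of 0.11 with GA+GA highest. Cldn4, below the filter, was lowest in GA+GA by 0.0036, with the other arrays exactly tied. Its range was 0.033 after quantile normalization, so the array patterns of the 2 genes cannot be compared. Ocln lies next to Marveld2, which encodes tricellulin, a protein of junctions where 3 cells meet. Marveld2 stood at 8.43 in GA+GA, 8.46 in LG21+GA, 8.43 in GA+Asp, 8.43 in Tep+Asp and 8.32 in LG21+Asp, with LG21+Asp the low array, while Ocln was lowest in GA+GA. These pairs were chosen after their values were seen.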
